A study of Mus musculus with 8 samples.

Results

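Metallothioneins and their zinc-response partners were described here in mouse Lgr5-traced skin cells after injury, with and without regulatory T (Treg) cells. The 5 genes, of 46078 in the deposited count table, were Mt1, Mt2 and Mt4 (metallothioneins), Mtf1 (the zinc-sensing transcription factor) and Slc30a1 (a zinc exporter). They were chosen by gene symbol, with their condition values in these same libraries already known, so their Treg-depleted against Treg-sufficient values are given as a description, and nothing is supported by which of them passed the fit over all genes. All 8 libraries came from mice labelled Lg5-egfp-ires-creert2/R26-tdTomato, a strain in which a tamoxifen-activated Cre made from the Lgr5 locus switches on the tdTomato reporter. All 8 carry the treatment label skin injury. There were 4 Treg-sufficient libraries and 4 Treg-depleted libraries, and each of 2 experiments holds 2 of each, replicates 1 and 2 in experiment 1 and replicates 3 and 4 in experiment 2. The trace marks cells that had Lgr5-driven Cre and their descendants, so a sorted cell need not still make Lgr5. The sources used here do not give the way Treg cells were depleted, the age and sex of the mice, the time after injury, or whether a library is 1 mouse or a pool. P-values therefore measure only the spread between these libraries, which may be technical.

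Metallothioneins are small, cysteine-rich proteins that bind zinc, copper and cadmium and also react with oxidants. When free zinc rises, Mtf1 (metal regulatory transcription factor 1) enters the nucleus and binds metal response elements (MREs), short DNA motifs in the promoters of Mt1, Mt2 and Slc30a1. Slc30a1, also called ZnT1, sits in the plasma membrane and carries zinc out of the cell. Mt1 and Mt2 are made in most tissues and also respond to glucocorticoids and to inflammatory cytokines, whereas Mt4 is known from stratified squamous epithelium such as skin and tongue.

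The libraries held 22330729 to 29975347 counts on genes, and 16495 genes, all 5 zinc-response genes among them, passed the filter on low counts. Genes listed as follicle stem cell markers were present throughout: 8 of 8 (Lgr5, Krt15, Cd34, Sox9, Lhx2, Krt5, Krt14 and Itga6) had counts in every library. Their summed level was 14930 to 30130 CPM (counts scaled by library size). The keratins Krt5 (6560 to 12200 CPM), Krt15 (3430 to 8060 CPM) and Krt14 (2420 to 8320 CPM) led that sum. Lgr5 was at 289 to 539 CPM, so the sum alone does not set stem cells apart from other keratin-rich cells. The leukocyte gene Ptprc was at most 0.404 CPM, and 6 fibroblast markers summed to 18.9 to 104.1 CPM. The female-specific transcript Xist stood at 2713 CPM in Treg-sufficient replicate 2 and 72.0 CPM in Treg-depleted replicate 2, both of experiment 1, against 0.968 to 2.26 CPM elsewhere. Y-linked genes summed to 2.84 CPM in Treg-sufficient replicate 2 and to 314.3 to 417.4 CPM in the rest. Fewer genes had counts in Treg-depleted replicate 2 (18605) and Treg-sufficient replicate 3 (19593) than in the others (21720 to 23062). Values of the 5 genes are also given without both Xist libraries where that moved them beyond their error or changed a call. That omission leaves only replicate 1 of each condition in experiment 1.

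The 3 metallothionein genes lie side by side on chromosome 8 of the mouse genome (GRCm38, positions from the GENCODE M21 annotation), all on the forward strand. Mt4 spans 94137197 to 94139031, Mt2 spans 94172664 to 94173568 and Mt1 spans 94179082 to 94180327, each with 3 exons. Mt3, the metallothionein best known from brain, lies between Mt4 and Mt2. The cluster covers 43.131 kb, and only 5513 bases separate the end of Mt2 from the start of Mt1. Mtf1 (11 exons) is on chromosome 4 at 124802104 to 124849800, and Slc30a1 (2 exons) is on chromosome 1 at 191906767 to 191913247. None of the 5 principal transcripts shared a 50-base stretch with a transcript of another gene, so reads of the short Mt1 and Mt2 messages can be told apart at that length.

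The promoters are shown because Mt1 and Mt2 had near-parallel levels from library to library, while over all 8 libraries Mt4 and Slc30a1 did not follow them. The 250 bases before each RefSeq start (assembly GRCm38.p6, forward strand, 5′ to 3′) are printed below, with the MRE core in capitals. The core was searched on both strands as TGCACNC or TGCGCNC, and a match on the reverse strand is printed as it reads on the forward strand. The last line gives the first bases after the Mt1 start, which hold a further pair of cores.
Mt1 chr8:94178839-94179088: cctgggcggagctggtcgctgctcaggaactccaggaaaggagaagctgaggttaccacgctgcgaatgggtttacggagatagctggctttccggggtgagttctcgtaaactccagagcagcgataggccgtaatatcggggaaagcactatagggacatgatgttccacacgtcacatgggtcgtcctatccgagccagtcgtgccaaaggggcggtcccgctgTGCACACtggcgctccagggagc
Mt2 chr8:94172368-94172617: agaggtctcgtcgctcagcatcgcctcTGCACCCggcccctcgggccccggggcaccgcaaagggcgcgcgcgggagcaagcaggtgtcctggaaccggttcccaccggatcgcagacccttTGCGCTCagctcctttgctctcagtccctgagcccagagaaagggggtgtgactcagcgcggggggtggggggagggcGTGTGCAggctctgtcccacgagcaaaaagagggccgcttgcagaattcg
Mt4 chr8:94136954-94137203: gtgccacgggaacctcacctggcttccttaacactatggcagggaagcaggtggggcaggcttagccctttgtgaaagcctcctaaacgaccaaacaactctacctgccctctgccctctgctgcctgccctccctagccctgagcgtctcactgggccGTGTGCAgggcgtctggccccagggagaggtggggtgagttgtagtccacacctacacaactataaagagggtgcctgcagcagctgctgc
Slc30a1 chr1:191906531-191906780: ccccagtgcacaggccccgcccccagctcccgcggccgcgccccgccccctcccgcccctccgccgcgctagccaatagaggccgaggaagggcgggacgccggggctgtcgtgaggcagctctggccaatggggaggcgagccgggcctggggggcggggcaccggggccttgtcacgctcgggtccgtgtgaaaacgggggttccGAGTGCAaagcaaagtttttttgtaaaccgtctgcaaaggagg
Mt1 after the start chr8:94179089-94179115: tcTGCACTCcgcccgaaaagTGCGCTC

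Over the whole window of 250 bases before to 50 after the start, Mt2 had 4 core matches, Mt1 had 3, Slc30a1 had 2, Mt4 had 1 and Mtf1 had 0. Of 32851 mouse promoter windows of the same length, 25.7% held at least 1 match, 7.11% held 2 or more, 1.97% held 3 or more and 0.517% held 4 or more. The single Mt4 match (91 to 85 bases before the start) is thus of a kind that many promoters hold. In the first 200 bases of the GENCODE principal transcript, which begins close to the RefSeq start, Mt1 held 4 matches and Mt2 held 3, counts reached by 0.107% and 0.597% of 58616 transcripts. Shorter annotated transcripts of Mt1 and Mt2 begin downstream of that start. The start used in these libraries was not measured, so the printed bases may miss cores that lie just before it. Slc30a1 held 1 match there, and Mt4 and Mtf1 held 0. The antioxidant response core TGACNNNGC, bound by Nrf2, occurred once each in the Mt2 and Slc30a1 windows and in 12.4% of all windows. Neither the palindromic glucocorticoid receptor motif (0.0578% of windows) nor the STAT motif TTCNNNGAA (8.3%) was found in any of the 5 windows. Motifs this rare are absent from most windows, and bases farther from the start were not searched, so nothing is read from their absence. A match is a string of letters, not a measured binding site.

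Mt1 and Mt2, the zinc-storing effectors, were the most abundant of the 5 genes, and their difference between conditions ran in opposite directions in the 2 experiments. In experiment 1 both were higher in the Treg-depleted libraries, and in experiment 2 both were lower there. In experiment 1, Mt1 stood at 219 and 118 CPM in the Treg-sufficient libraries and at 537 and 631 CPM in the Treg-depleted libraries. In experiment 2, Mt1 stood at 241 and 166 CPM in the Treg-sufficient libraries and at 94.5 and 101 CPM in the Treg-depleted libraries. The groups did not overlap in either experiment. Mean Mt1 was 3.46-fold higher with Treg depletion in experiment 1, a log2 difference of 1.79 ± 0.30 (standard error, SE). In experiment 2 it was 2.08-fold lower, a log2 difference of -1.06 ± 0.30. Over all 8 libraries the conditions overlapped, at 186 ± 55.3 CPM (SD, n = 4) with and 341 ± 283 CPM (SD, n = 4) without Treg cells. The pooled log2 difference of 0.37 ± 0.58 was smaller than its own error.

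Mt2 had the same pattern at a higher level. In experiment 1, it stood at 318 and 197 CPM in the Treg-sufficient and 627 and 853 CPM in the Treg-depleted libraries. In experiment 2, it stood at 453 and 269 CPM in the Treg-sufficient and 131 and 144 CPM in the Treg-depleted libraries. The Treg-depleted libraries thus held both the highest and the lowest Mt2 levels of the series. The log2 difference was 1.52 ± 0.31 (2.88-fold higher) in experiment 1 and -1.39 ± 0.31 (2.63-fold lower) in experiment 2. The pooled value was 0.07 ± 0.59. It turned negative when Treg-sufficient replicate 1 or 2, or Treg-depleted replicate 1 or 2, was left out (lowest -0.50), and pooled Mt1 turned negative without Treg-sufficient replicate 2 (-0.21). Without both Xist libraries, which leaves replicate 1 of each condition in experiment 1, the experiment 1 difference was 1.25 for Mt1 and 0.94 for Mt2. Without Treg-sufficient replicate 1 it was 2.31 for Mt1 and 1.91 for Mt2. That omission removes no library of experiment 2.

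**Figure D1:**
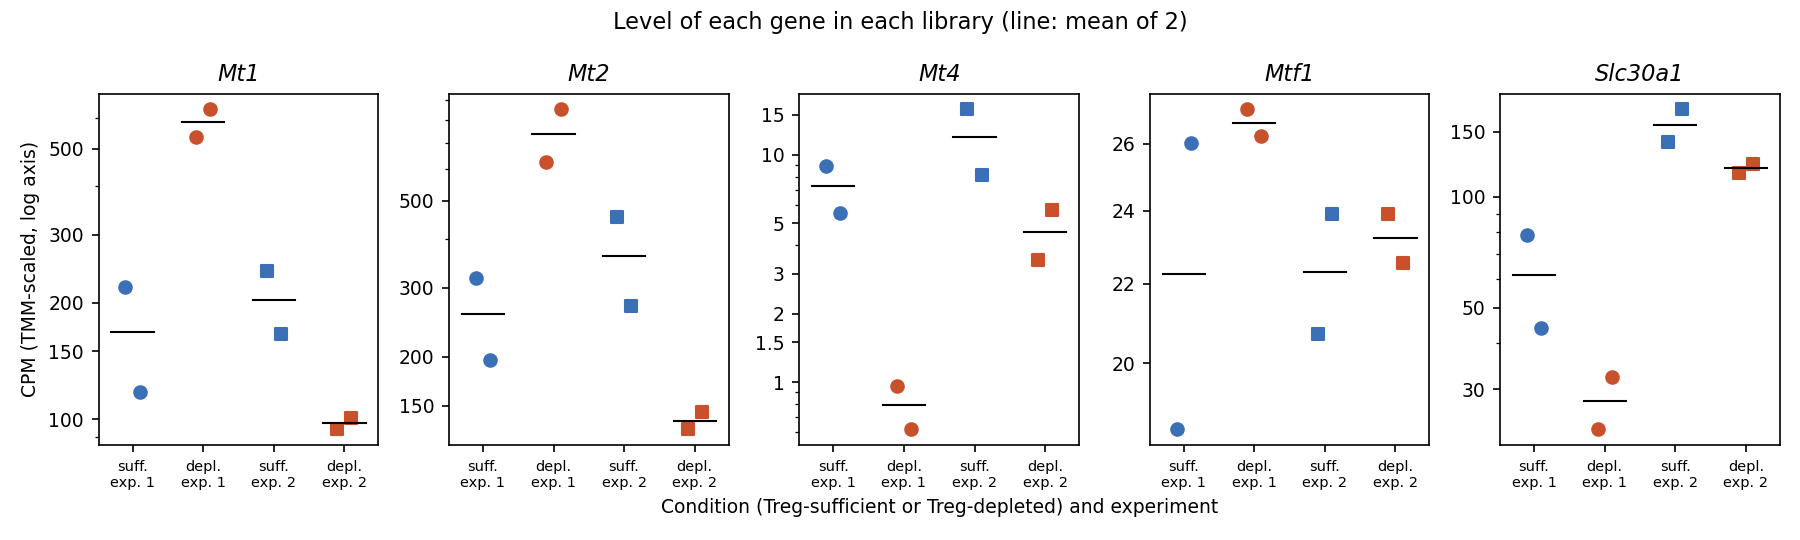
Level of each of the 5 genes in each library, in CPM scaled by trimmed mean of M-values factors on a log axis whose range differs between panels; circles are experiment 1, squares are experiment 2, blue is Treg-sufficient, orange is Treg-depleted, and each line is the mean of 2 libraries. Mt1 and Mt2 are highest in the Treg-depleted libraries of experiment 1 (537 and 631 CPM for Mt1) and lowest in those of experiment 2, whereas Mt4 and Slc30a1 are lower with Treg depletion in both.

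The 2 messages tracked each other closely across libraries. On log2 CPM, Mt1 and Mt2 had Pearson's r = 0.980 (exact permutation p = 2.48e-05 over all pairings of 8 libraries, adjusted 0.000248 over 10 gene pairs) and Spearman's rho = 1 (exact permutation p = 4.96e-05, adjusted 0.000496). That p for r is the smallest the pairings can give. Leaving out the 2 libraries farthest from the median, Treg-depleted replicates 1 and 2, gave r = 0.981. All 5 genes were chosen with these levels known, and the pairings ignore condition and experiment. Every correlation and p between the 5 genes therefore describes these libraries and supports nothing further. With 4 libraries an experiment is too small for a correlation of its own.

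The balance between the 2 genes lay higher with Treg depletion in both experiments, unlike their levels. Counts of Mt1 per count of Mt2 were 0.69, 0.60, 0.53 and 0.62 in Treg-sufficient replicates 1 to 4. In the Treg-depleted replicates 1 to 4 they were 0.86, 0.74, 0.72 and 0.70. Every Treg-depleted library lay above every Treg-sufficient library, in both experiments. The ratio comes from levels known when the genes were chosen, and ratios of other gene pairs were not computed. The separation is therefore given as a description only. Means were 0.61 ± 0.065 (SD, n = 4) and 0.75 ± 0.070 (SD, n = 4). The margin was narrow, since the highest Treg-sufficient ratio (0.690) lay just below the lowest Treg-depleted ratio (0.699). Transcript length does not enter a ratio that is compared between libraries.

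**Figure D2:**
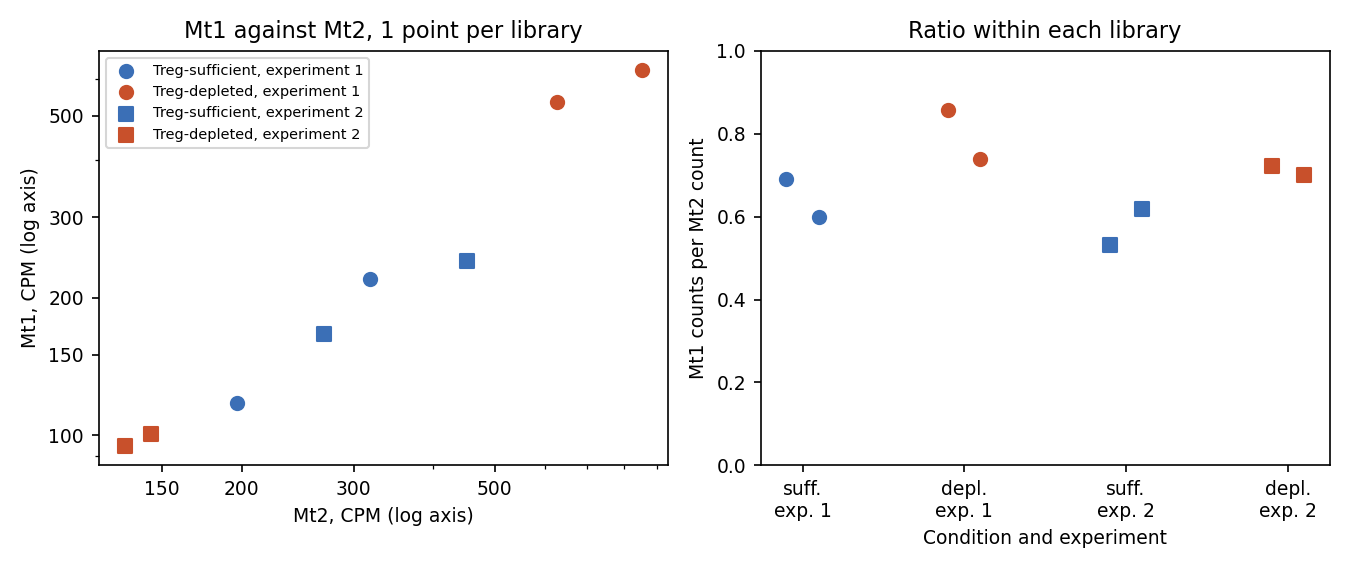
Left, Mt1 against Mt2 in CPM on log axes, 1 point per library; right, Mt1 counts per Mt2 count in each library, by condition and experiment. The 8 libraries fall along 1 line, in the same order for both genes, and the ratio is 0.53 to 0.69 in Treg-sufficient and 0.70 to 0.86 in Treg-depleted libraries.

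Mt4, the metallothionein of stratified epithelium, was lower with Treg depletion in both experiments. Its level was 8.97 and 5.57 CPM in the Treg-sufficient libraries of experiment 1 (247 and 163 counts) and 0.96 and 0.62 CPM in the Treg-depleted libraries (28 and 13 counts). In experiment 2 it was 15.9 and 8.14 CPM with Treg cells and 3.45 and 5.71 CPM without. The groups did not overlap within either experiment, but the lowest Treg-sufficient library (5.57 CPM) lay below the highest Treg-depleted library (5.71 CPM) across experiments. Mean Mt4 was 9.18-fold lower in experiment 1 (log2 difference -3.17 ± 0.51) and 2.62-fold lower in experiment 2 (-1.39 ± 0.45). The pooled log2 difference was -2.20 ± 0.45, with a range of -2.59 to -1.83 over 16 alternative settings, all negative. Within experiment 2 it was -0.83 without Treg-sufficient replicate 3.

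Relative to the abundant pair, Mt4 set the Treg-depleted libraries of experiment 1 apart. There were 16.7, 17.7, 22.8 and 18.7 Mt4 counts per 1000 counts of Mt1 and Mt2 together in Treg-sufficient replicates 1 to 4. Treg-depleted replicates 3 and 4 had 15.3 and 23.3, on both sides of that range. Treg-depleted replicates 1 and 2 had 0.83 and 0.42. In experiment 2 the 3 metallothioneins were thus lower by a like factor (2.08-, 2.63- and 2.62-fold for Mt1, Mt2 and Mt4), whereas in experiment 1 Mt4 differed in the direction opposite to Mt1 and Mt2. Across all 8 libraries Mt1 and Mt4 had r = -0.636 (exact permutation p = 0.0839, adjusted 0.168) and rho = -0.190 (exact permutation p = 0.665, adjusted 0.665). Without Treg-depleted replicates 1 and 2 that r was 0.924, so in the other 6 libraries Mt4 ran with Mt1. In bulk samples, fewer cells of a type and less RNA per cell cannot be told apart, which applies to all 5 genes.

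Other genes of the differentiating epidermis, where Mt4 is known to be made, were examined beside it. Of 17 listed terminal differentiation genes 14 were tested, and 0 passed as different between conditions in experiment 1 in edgeR's quasi-likelihood test (5 had an unadjusted p under 0.05). In that comparison 11 of the 14 were negative, with a median log2 difference of -0.55 against 0.01 over all genes. DESeq2 called 1 as lower there, where it called 480 of 16495 genes. Without the filter on low counts 7 of 17 were called lower, where 759 of 27611 genes were. In experiment 2, 4 of the 14 were negative and the median was 0.52 against 0.00 over all genes. The summed level of the list in experiment 1 was 2757 and 2476 CPM with Treg cells against 1735 and 1367 CPM without, which do not overlap. In experiment 2 it was 1114 and 1441 CPM with and 1848 and 1329 CPM without, which overlap. Genes of the hair lineage (11 of 16 tested) had a median of -1.59 in experiment 1, with 9 of 11 negative, and of -0.97 in experiment 2, with 11 of 11 negative. One of them, Krt35, a hair shaft keratin, passed as lower in experiment 1, where 0.382% of all genes did (log2 difference -5.88 ± 0.82, adjusted p = 0.0336 in edgeR's quasi-likelihood test), and not after any of 6 libraries was left out. DESeq2 called 5 hair lineage genes as lower in experiment 1, where it called 480 of 16495 genes. Fibroblast markers also moved with Mt4 in experiment 1, with 6 of 6 detected in the series and sums of 89.9 and 37.0 CPM with Treg cells against 18.9 and 19.7 CPM without. In experiment 2 the sums were 68.8 and 104.1 CPM with and 70.0 and 49.4 CPM without. The part of hair-lineage, differentiating or fibroblast cells in the Mt4 values was not tested.

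Mtf1, the zinc sensor, was steady across all 8 libraries. It stood at 18.5, 26.0, 20.7 and 23.9 CPM in Treg-sufficient replicates 1 to 4 and at 27.1, 26.2, 23.9 and 22.5 CPM in Treg-depleted replicates 1 to 4. In experiment 1 the groups were separated by a small gap (26.0 against 26.2 CPM), and in experiment 2 they overlapped. The log2 difference was 0.26 ± 0.20 in experiment 1, 0.06 ± 0.20 in experiment 2 and 0.16 ± 0.14 pooled. In experiment 1 it was 0.51 without both Xist libraries and 0.03 without Treg-sufficient replicate 1. The highest library was less than 1.5 times the lowest, whereas Mt1 and Mt2 spanned 94.5 to 631 and 131 to 853 CPM. The level of the Mtf1 message is not a measure of its activity, which is set by zinc binding.

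Slc30a1, the plasma membrane zinc exporter, was lower with Treg depletion in both experiments and was higher in experiment 2 than in experiment 1. In experiment 1 it stood at 78.9 and 44.1 CPM with Treg cells and at 23.4 and 32.3 CPM without. In experiment 2 it stood at 140 and 173 CPM with Treg cells and at 116 and 123 CPM without. The conditions did not overlap within an experiment, and the experiments did not overlap at all. Mean Slc30a1 was 2.21-fold lower with Treg depletion in experiment 1 (log2 difference -1.14 ± 0.28) and 1.31-fold lower in experiment 2 (-0.39 ± 0.27). The experiment 1 difference ranged from -0.66 (without Treg-sufficient replicate 1) to -1.80 (without both Xist libraries) and was negative under all 14 alternatives; without Treg-sufficient replicate 2 or Treg-depleted replicate 2 it was -1.54 or -1.43. The fibroblast sums above moved with Slc30a1 too in experiment 1, and their part was not tested. The pooled log2 difference was -0.76 ± 0.23.

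Slc30a1 therefore did not run with Mt1 and Mt2, the other classical Mtf1 targets. Counts of Slc30a1 per count of Mt1 and Mt2 together were 0.147, 0.140, 0.202 and 0.396 in Treg-sufficient replicates 1 to 4. They were 0.020 and 0.022 in the Treg-depleted libraries of experiment 1 and 0.515 and 0.501 in those of experiment 2. Depletion was thus accompanied by a lower ratio in experiment 1 and a higher ratio in experiment 2. Across the 8 libraries r between Slc30a1 and Mt1 was -0.671 (exact permutation p = 0.0754, adjusted 0.168) and rho was -0.452 (p = 0.267, adjusted 0.445, exact permutation). Without Treg-depleted replicates 1 and 2 that r was 0.182, so the negative sign rested on those libraries.

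**Figure D3:**
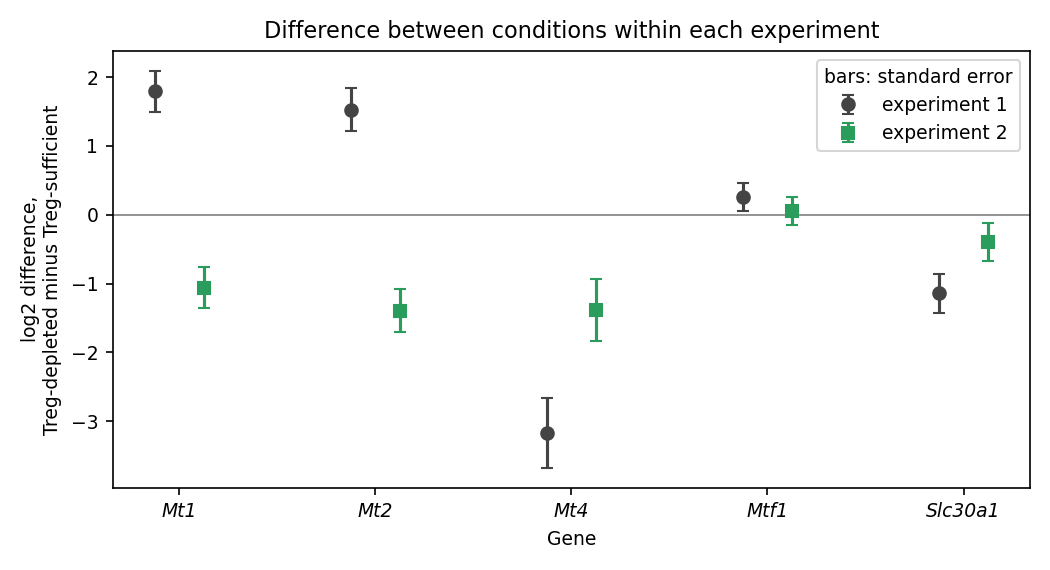
Log2 difference, Treg-depleted minus Treg-sufficient, of each gene within experiment 1 (grey circles) and experiment 2 (green squares), with bars of 1 standard error from the model with 4 groups. Mt1 and Mt2 lie above 0 in experiment 1 (1.79 and 1.52) and below 0 in experiment 2 (-1.06 and -1.39), Mt4 and Slc30a1 lie below 0 in both, and Mtf1 lies near 0.

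Set against all genes, few of these differences passed the threshold of an adjusted p of 0.05 in edgeR's quasi-likelihood test. Between conditions 0 of the 5 genes passed, as did 0% of the 16495 tested genes (1175 had an unadjusted p under 0.05, and DESeq2 called 84). Within experiment 1, 1 of 5 passed (Mt4), where 0.606% of all genes did. In 7 of the 8 fits that left out 1 library 0 of 5 passed, and 1 passed without Treg-sufficient replicate 1. Within experiment 2, 0 of 5 passed, as did 0% of all genes (288 with an unadjusted p under 0.05, 1 called by DESeq2). For the difference between the 2 experiments' effects, 0 of 5 passed, as did 0% of all genes (923 with an unadjusted p under 0.05, 182 called by DESeq2). With the DESeq2 test the counts among the 5 genes were 1, 4, 0 and 2 in the same order, where 84, 721, 1 and 182 of 16495 genes were called. Non-overlap of 2 libraries against 2 is common: 37.6% of all genes showed it in experiment 1, where 5 of 5 did, and 32.6% in experiment 2, where 4 of 5 did. Non-overlap in opposite directions, as for Mt1 and Mt2, was found for 4.41% of all genes. These contrasts chose the genes, so nothing is read from the counts.

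The comparison of experiment 2 with experiment 1, adjusted for condition, was not the contrast that chose the genes, and it was tested. The levels of the 5 genes were known when they were chosen, so these p-values describe these libraries and support nothing further. Slc30a1 was higher in experiment 2, at 138 ± 25.2 CPM (SD, n = 4) against 44.7 ± 24.3 CPM (SD, n = 4) in experiment 1, and all 4 libraries lay above all 4, as for 13.4% of all genes in either direction. The log2 difference was 1.72 ± 0.23 with an adjusted p of 0.0439 over all genes in edgeR's quasi-likelihood test. It was the only 1 of the 5 genes that passed, where 1.62% of all genes did. The size held at 1.55 to 1.99 over 14 alternative settings, but the call did not hold without Treg-sufficient replicate 2 or 4 or any Treg-depleted replicate (6 of 8), nor without both Xist libraries (1.61, adjusted p = 0.203). Mt4 was next, at 1.53 ± 0.44 (adjusted p = 0.0912), followed by Mt1 at -1.15 ± 0.58 (adjusted p = 0.290), Mt2 at -0.97 ± 0.60 (adjusted p = 0.394) and Mtf1 at -0.10 ± 0.14 (adjusted p = 0.745). Melanocyte markers also separated the experiments, with 6 of 6 detected in every library and sums of 57.6 to 87.2 CPM in experiment 1 and 128.7 to 387 CPM in experiment 2. Summed hair lineage genes were at 164 to 386.5 CPM in experiment 1 and 375 to 685.1 CPM in experiment 2. Of 11 tested hair lineage genes 3 (Dlx3, Krt28 and Krt71) passed as higher in experiment 2 in edgeR, where 0.903% of all genes did. The part of these cells in the Slc30a1 difference was not tested. Krtdap, of the 14 tested terminal differentiation genes, and Zbtb16, of the 10 genes of the glucocorticoid list below, passed as lower in experiment 2, where 0.721% of all genes did. The calls in these 3 lists did not hold in most fits that left out 1 library.

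Levels per kilobase of principal transcript put the 5 genes in order. Mt2 (256 to 1670 CPM per kb) and Mt1 (172 to 1149 CPM per kb) led, with ranges that overlapped although Mt2 was above Mt1 in each of the 8 libraries. Slc30a1 (4.47 to 32.9 CPM per kb), Mt4 (1.56 to 39.9 CPM per kb) and Mtf1 (2.42 to 3.55 CPM per kb) followed far below. The ranges of Slc30a1, Mt4 and Mtf1 overlapped. Mt3 had 0 to 19 counts a library, was at 0 in Treg-depleted replicates 1 and 2 (which allows up to 0.101 and 0.134 CPM, the level of 3 counts, for counting error only) and was too low to be tested.

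Among 11273 genes with a mean of at least 5 CPM, the gene whose log2 CPM over the 8 libraries was most like Mt1 was Mt2, and the converse held. Outside the 5 genes, the closest to Mt1 were Plp2 (r = 0.956), Slc25a26 (0.946), Snx2 (0.945), Skp1a (0.940) and Mbd2 (0.938). The closest to Mt2 were Plp2 (r = 0.966), Emc4 (0.964), Pdha1 (0.962), Mpc1 (0.956) and Dph3 (0.951), of which Pdha1 and Mpc1 serve mitochondrial pyruvate use. These genes moved over a much narrower range than Mt1 and Mt2; Plp2, for example, lay between 110 and 204 CPM. The closest to Mt4 were Rasl11b (r = 0.989), Wbp1 (0.985), Ccdc61 (0.985), Arg2 (0.977) and Cops7b (0.973), while Slc30a1 ranked 857 for Mt4. These r are a ranking over 8 libraries that share conditions, with no test. Mt4 and Slc30a1 had r = 0.798 (exact permutation p = 0.0177, adjusted 0.0885) and rho = 0.738 (exact permutation p = 0.0458, adjusted 0.153), and r = 0.268 without Treg-depleted replicates 1 and 2. Mt4 and Mtf1 had r = -0.733 (exact permutation p = 0.0399, adjusted 0.133) and rho = -0.905 (exact permutation p = 0.00456, adjusted 0.0228), and r = -0.584 without the same libraries.

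Genes next to the cluster were read beside Mt1 and Mt2. Nup93, a nuclear pore component that lies beyond Mt1, had a log2 difference of -0.41 ± 0.34 in experiment 1 and -0.27 in experiment 2. On the other side, beyond Mt4, Bbs2 was at -0.16 ± 0.24 and 0.08, Ogfod1 at -0.04 ± 0.13 and -0.004, and Nudt21 at -0.25 ± 0.14 and -0.12, in the same order. None of these named genes passed in experiment 1, in experiment 2 or between experiments in edgeR's test. Slc12a3 was too low to be tested, as was Mt3.

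The other zinc transporters showed where Slc30a1 stood within its family. Exporters of the Slc30a (ZnT) family pump zinc out of the cytosol, and importers of the Slc39a (ZIP) family bring it in. Of 9 other exporters 7 were tested and 0 passed within experiment 1 or between experiments in edgeR or DESeq2 (2 and 0 had an unadjusted p under 0.05 in edgeR). The most abundant were Slc30a9 (93.8 CPM on average), Slc30a5 (86.6) and Slc30a4 (72.9), with log2 differences between experiments of 0.07, -0.03 and 0.04. Slc30a1, at 1.72, was thus the only tested exporter that passed; its difference from the other exporters was not tested. Of 14 importers 13 were tested, and in edgeR 0 passed within experiment 1 (2 had an unadjusted p under 0.05). DESeq2 called 1 as lower, where it called 480 of 16495 genes, and 3 passed without the filter, where 1152 of 27611 did. Between experiments 2 passed as higher in experiment 2 in edgeR, where 0.903% of all genes did. DESeq2 called 2 as higher and 2 as lower there, where it called 1207 and 960 of 16495 genes. Slc39a10 (ZIP10), a plasma membrane importer, was at 73.1 to 282 CPM in experiment 1 and 476 to 599 CPM in experiment 2 (log2 difference 1.90 ± 0.30, adjusted p = 0.0439, edgeR). Slc39a14 (ZIP14), which also carries iron and manganese, was at 47.8 to 94.1 CPM in experiment 1 and 126 to 170 CPM in experiment 2 (1.29 ± 0.21, adjusted p = 0.0439, edgeR).

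Slc39a10 also resembled Slc30a1 within experiment 1, at 282 and 160 CPM with Treg cells and 73.1 and 107 CPM without, a log2 difference of -1.30 ± 0.29 that did not pass (adjusted p = 0.110, edgeR). In experiment 2 its difference was -0.06. Neither importer passed between experiments when any library other than Treg-sufficient replicate 1 was left out, nor without both Xist libraries.

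**Figure D4:**
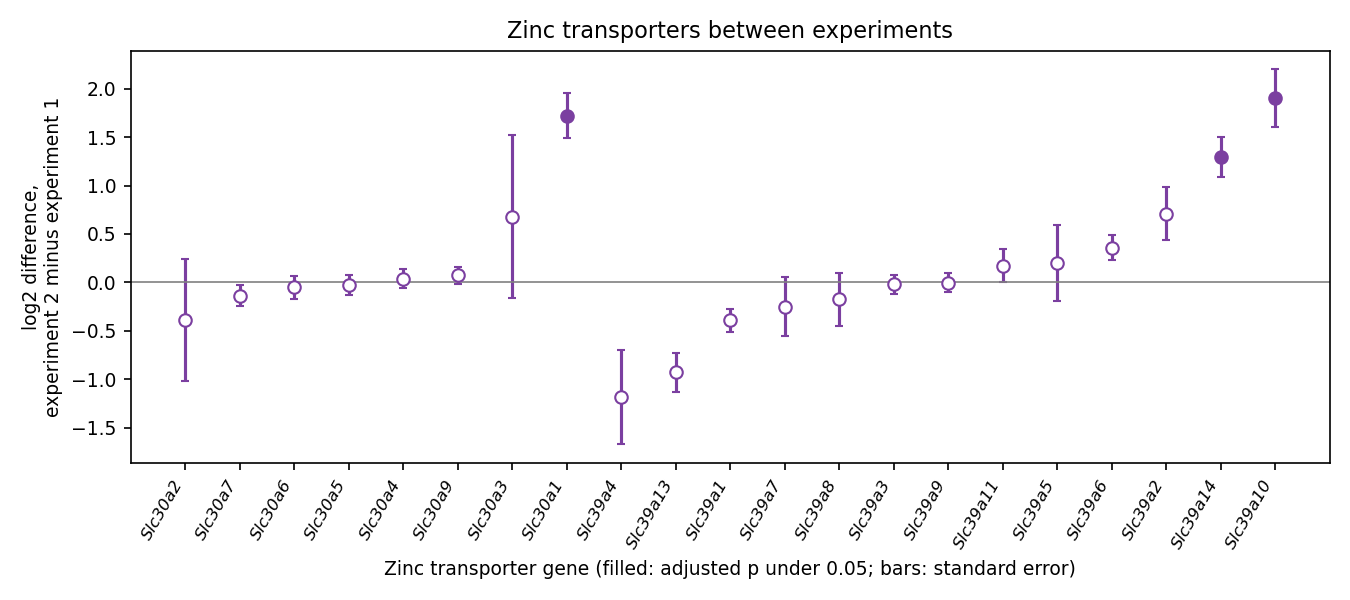
Log2 difference, experiment 2 minus experiment 1, of the 21 tested zinc transporter genes of the Slc30a and Slc39a families, with bars of 1 standard error; filled points have an adjusted p under 0.05. Slc30a1 (1.72), Slc39a14 (1.29) and Slc39a10 (1.90) are filled and positive, while the most abundant other exporters lie near 0.

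Of the 6 other genes listed as Mtf1 targets, 0 passed within experiment 1 in edgeR (3 had an unadjusted p under 0.05). DESeq2 called 1 as lower, where it called 480 of 16495 genes, and 3 passed without the filter, where 1152 of 27611 did. Slc39a10 and Gclc, 2 of the 6, passed as higher in experiment 2, where 0.903% of all genes did. The list does not say whether Mtf1 raises or lowers each gene, so no Mtf1 response is read from a shared direction. Gclc, the catalytic subunit of the enzyme that starts glutathione synthesis, was at 73.0 ± 11.4 CPM (SD, n = 4) in experiment 1 and 144 ± 13.5 CPM (SD, n = 4) in experiment 2 (log2 difference 0.98 ± 0.11, adjusted p = 0.0439, edgeR). Of 10 Nrf2 targets 0 passed within experiment 1 in edgeR (1 had an unadjusted p under 0.05, and DESeq2 called 1 as higher, as did the fit without the filter), with a median log2 difference of 0.08. Gclc and Txnrd1, 2 of the 10, passed as higher in experiment 2 against the same 0.903%. DESeq2 called 2 as higher and 2 as lower there, where it called 1207 and 960 of 16495 genes. Txnrd1, cytosolic thioredoxin reductase, was at 89.3 ± 18.1 CPM (SD, n = 4) and 177 ± 12.8 CPM (SD, n = 4). In each of these lists at most 1 call was left when any library other than Treg-sufficient replicate 1 was omitted, and 0 without both Xist libraries. Of 10 copper-handling genes 9 were tested and 0 passed in either comparison in edgeR or DESeq2 (0 had an unadjusted p under 0.05); Atox1, the copper chaperone and the most abundant, was at -0.31 in experiment 1 and -0.29 in experiment 2.

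Glucocorticoids are hormones that also raise Mt1 and Mt2, and a list of genes named as induced by them was examined. The list also holds Nr3c1, the gene of the glucocorticoid receptor itself, with log2 differences of 0.21 ± 0.19 in experiment 1 and 0.29 ± 0.19 in experiment 2. The list was chosen with earlier results of these data known, so its counts and p-values are a description. Of 10 listed, 5 passed as higher in the Treg-depleted libraries of experiment 1 (Tsc22d3, Cebpd, Errfi1, Klf9 and Dusp1), where 0.224% of all genes did, 9 of 10 were positive, and the median log2 difference was 1.97 against 0.01 over all genes. Fkbp5, a classical target of the receptor, was the exception at -0.19 ± 0.30, a value chosen for mention after it was seen. DESeq2 called 7 of the 10 as higher, where it called 241 of 16495 genes. Tsc22d3 (GILZ, a glucocorticoid-induced regulator of inflammation) stood at 33.0 and 22.6 CPM with Treg cells and 269 and 170 CPM without (2.98 ± 0.30, adjusted p = 0.0144, edgeR). Cebpd, a C/EBP-family factor active in inflammation, stood at 8.21 and 3.65 CPM with Treg cells and 61.5 and 71.6 CPM without (3.49 ± 0.36, adjusted p = 0.0151, edgeR). In experiment 2, 0 of 10 passed in edgeR (2 had an unadjusted p under 0.05). All 10 were positive there, from 0.04 to 1.03, with a median of 0.36 against 0.00 over all genes. Mt1 and Mt2 were at -1.06 and -1.39 in that experiment. The part of glucocorticoids in the Mt1 and Mt2 values was not tested. The experiment 1 count was 2 or 3 without Treg-sufficient replicate 1, 2, 3 or 4 or Treg-depleted replicate 1 or 4, and 0 without Treg-depleted replicate 3.

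STAT3 and acute-phase genes, another known class that rises with Mt1 and Mt2 in inflammation, had a median of 1.60 in experiment 1 against 0.01 over all genes, with 7 of 7 positive where 52% of all genes were. In experiment 1 DESeq2 called 6 of 7 as higher, where it called 241 of 16495 genes. Without the filter 6 of 8 were called higher, where 393 of 27611 genes were. In edgeR with the filter 2 of 7 passed as higher, where 0.224% of all genes did. Serpina3n, an acute-phase protease inhibitor, passed there at 5.05 and 15.1 CPM with Treg cells and 950 and 247 CPM without (5.89 ± 0.76, adjusted p = 0.0257, edgeR). Bcl3, a nuclear cofactor of NF-kB, passed at 5.70 and 6.25 CPM with Treg cells and 23.9 and 21.8 CPM without (1.93 ± 0.26, adjusted p = 0.0284, edgeR). In experiment 2, 0 of 7 passed in edgeR (1 had an unadjusted p under 0.05), 3 of 7 were positive and the median was -0.04. The experiment 1 count was 0 without any of Treg-sufficient replicates 2, 3 and 4 or Treg-depleted replicates 3 and 4. This list, too, was chosen with earlier results of these data known, so its counts and p-values are a description. The part of STAT3 in the Mt1 and Mt2 values was not tested. Neutrophil markers, 1 of 5 of which (Ly6g) was at 0 in every library, summed to 1.47 to 9.0 CPM in experiment 1 and 0.934 to 4.48 CPM in experiment 2, and their part in these values was not tested.

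**Figure D5:**
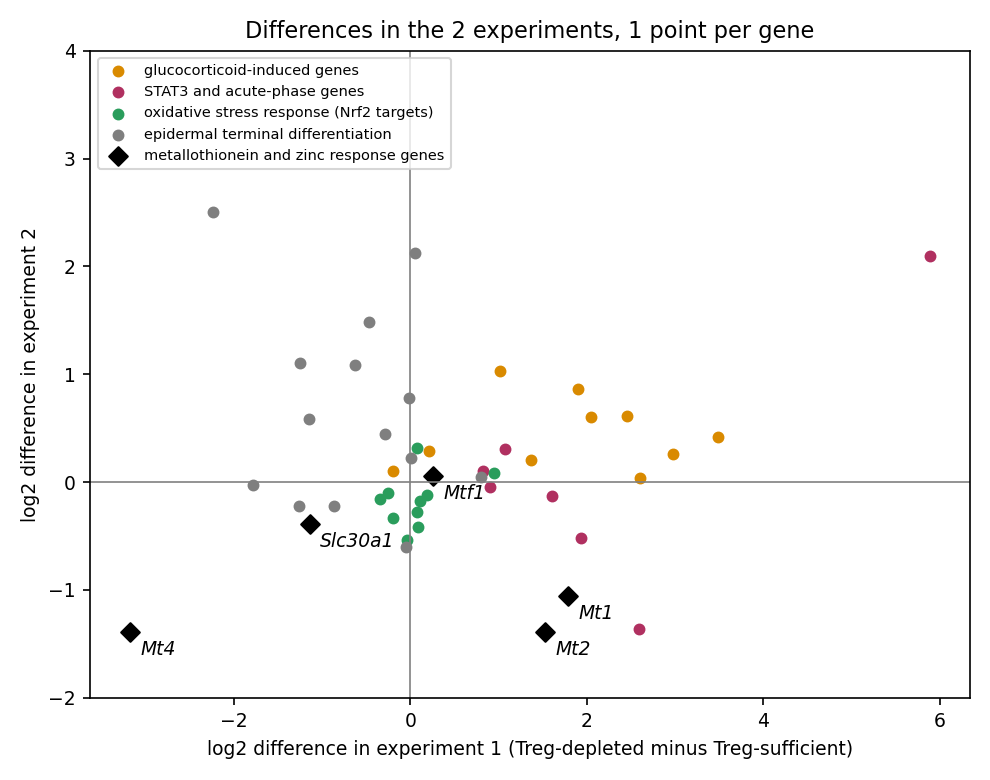
Log2 difference, Treg-depleted minus Treg-sufficient, in experiment 1 (horizontal) against experiment 2 (vertical), 1 point per gene, for glucocorticoid-induced, STAT3 and acute-phase, Nrf2 target and epidermal differentiation genes and the 5 metallothionein and zinc-response genes (black diamonds). Mt1 and Mt2 are positive in experiment 1 and negative in experiment 2, where all 10 genes of the glucocorticoid list, Nr3c1 among them, are above 0. Mt4 is the point farthest to the left at -3.17.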

How the data were processed

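RNA of flow-sorted cells was made into libraries with a kit that marks strand, per the labels' protocols. The authors deposited raw counts per Ensembl gene for 8 libraries. The submitters' processing notes name TopHat2, SAMtools, HTSeq and DESeq2 and the build GRCm38.p4; the sources used here name neither how HTSeq treated strand nor which gene annotation it used, so reads from overlapping antisense genes may be shared. Tally rows that name no gene were left out (6.63 to 10.797% without a feature, 2.722 to 3.014% ambiguous and 26.217 to 30.649% with several alignments, of all counts in the table).

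Here, genes were filtered with filterByExpr (minimum count 10), scaled by TMM factors and tested with edgeR 4.0.16 (quasi-likelihood F-test, R 4.3.3), with Benjamini-Hochberg adjustment over 16495 genes and a threshold of 0.05. Condition and experiment were terms of 1 model (5 residual degrees of freedom). A second model with 4 groups (4 residual degrees of freedom) gave the differences within experiments and their difference. A standard error is the log2 difference divided by the square root of F. Correlations used log2 CPM with a prior count of 2 and exact permutation over all pairings. The code was tested on simulated data. Alternatives were DESeq2 1.42.0 size factors and test, upper-quartile factors, no filter, limma-voom 3.58.1, leaving out each library or both Xist libraries, no experiment term and a replicate block. Replicate pairs differed by 27.1 or more in chi-square per gene, above sampling noise, so none was taken for a repeat deposit; this does not show that they came from separate mice.

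The 5 genes and the lists were chosen with earlier results of these data known. Named were the 5 genes, every listed gene that passed or, where none did, the most abundant of the list, the 5 genes most like each of Mt1, Mt2 and Mt4, and protein-coding genes that start within 200 kb of the cluster, of which 1 is not reported here. Slc30a and Slc39a genes shown in a plot are those tested.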

Additional observations from a re-analysis of the deposited data

Results flagged for a closer look

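The difference between conditions ran in opposite directions in the 2 experiments for Mt1 and for Mt2: in experiment 1 both Treg-depleted libraries lay above both Treg-sufficient libraries, and in experiment 2 both lay below. The experiment 1 difference minus the experiment 2 difference was 2.85 ± 0.42 (log2, SE) for Mt1 and 2.92 ± 0.44 for Mt2. Without both Xist libraries it was 2.31 and 2.33. No p is given for the 2 genes, because the contrast chose them; in the test over all genes neither passed in edgeR, and 2 of the 5 zinc-response genes passed in DESeq2. Of all genes, 0 of 16495 passed the test of that difference in edgeR (923 with an unadjusted p under 0.05), and 182 did in DESeq2.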

How the results depend on the processing

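Without a filter on low counts, 820 genes passed between conditions, 1152 within experiment 1, 132 within experiment 2, 534 for the difference of effects and 2443 between experiments; with the DESeq2 test the counts were 84, 721, 1, 182 and 2167. Of the 5 genes, 2, 4, 2, 2 and 4 passed without the filter and 1, 4, 0, 2 and 2 with DESeq2, in that order. Without both Xist libraries they were 487 within experiment 1, 89 for the difference of effects and 2 between experiments, and the pooled log2 difference was -0.32 for Mt1 and -0.65 for Mt2, while Mtf1 between experiments was 0.020. Leaving out 1 library gave 0 to 442 genes within experiment 1 (0 without Treg-depleted replicate 3), 0 to 9 for the difference of effects and 0 to 651 between experiments, pooled differences of -0.21 to 0.84 for Mt1 and -0.50 to 0.56 for Mt2, and for Mtf1 -0.043 to 0.17 within experiment 2 and -0.024 to 0.43 for the difference of effects. The cause was not tested. Mt4 and Slc30a1 kept a negative sign in each experiment under all 14 alternatives. Some of these left out a library of the other experiment, which hardly moves a difference within an experiment.

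Deviations of same-letter libraries within condition and experiment had correlations of -0.095 in experiment 1 and -0.118 in experiment 2. With 2 libraries a group, both letters of an experiment give the same value, so this cannot tell whether the title letters pair the libraries. Deviations from the condition mean, which also hold the difference between experiments, had correlations of 0.09 to 0.31 over the letters. With the letter as a replicate block, 0 genes passed between conditions, as without it. Mt4 rests on 13 to 416 counts a library, the thinnest of the 5 genes.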
